A study of Homo sapiens with 9 samples.

Results

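The mid-intron peaks of QKI‐5 were the peaks that lay inside an intron of a coding gene, on its strand, 251 to 5000 nt away from the nearest exon. They were chosen by position alone. A peak had to lie within an intron of a protein-coding transcript carrying the basic tag of GENCODE release 44, had to overlap no exon of such transcripts, and had to have its centre in that range of distances. Of the 24037 peaks in the list, 9916 met the rule, which is 41.3% (95% Wilson interval 40.6 to 41.9, counting error only). The other intronic peaks were 1745 peaks within 250 nt of an exon and 6047 peaks over 5000 nt from one. The remaining 6329 peaks touched coding exons or lay outside coding introns.

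The peaks came from HITS‐CLIP, in which living cells are irradiated so that proteins become bonded to their RNA, and the RNA fragments that an antibody brings down with 1 protein are sequenced. The cells were mesHMLE, a mesenchymal line derived from HMLE, which are immortalised human mammary epithelial cells, so all values describe 1 line in 1 state. The labels give prolonged TGF‐β1 as the treatment that produced the line, with 2.5 ng/ml for at least 14 days as the dose used to drive HMLE through EMT, and mesHMLE itself was kept without added TGF‐β1. Cells received 600 mJ/cm2 of ultraviolet light, and 9 libraries were made. Of these, 7 followed immunoprecipitation with a QKI‐5 antibody, and 2 were size-matched inputs. Of the 7, 3 came from the gel region of the monomer and 4 from that of the presumed dimer, 1 of these with SuperScript IV, and they are numbered as technical replicates. The authors pooled them before calling peaks, so no peak has a value per library, the list does not show how deeply any library was sequenced, and no spread between replicates can be given. Each peak has 1 whole-number value, read here as its height, a signal of the pooled libraries. A height depends on how much of a transcript was present as well as on how much was bound, and transcript levels were not analysed here.

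QKI belongs to the STAR family of RNA-binding proteins, and QKI‐5 is its nuclear isoform. It recognises the RNA sequence ACUAAY, often with a further UAAY element nearby, and it is known as a regulator of alternative splicing and of circular RNA formation through sites in the introns beside the exons concerned. The core ACUAAC also resembles the branch point that splicing uses near the end of an intron, which SF1 binds. In the genome sequence used here U is written as T, so the motif is ACTAAC.

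The following stretches are the RNA-sense sequences of the tallest mid-intron peaks that held ACTAAC and overlapped no other annotated exon, shown because they are where the pooled signal and the motif coincide. Of the 8 peaks, 6 are shown, the tallest, in PTK2, is given by its values only, and for the wide peak in TLN1 a stretch of 120 nt is shown. Positions are on hg19, sequences are from GRCh37 and read 5′ to 3′, and capitals mark ACTAAC.
SEPTIN11, chr4:77954644-77954764, plus strand: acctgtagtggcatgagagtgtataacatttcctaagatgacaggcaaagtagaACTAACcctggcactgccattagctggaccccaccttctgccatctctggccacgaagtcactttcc
SF1, chr11:64543046-64543153, minus strand: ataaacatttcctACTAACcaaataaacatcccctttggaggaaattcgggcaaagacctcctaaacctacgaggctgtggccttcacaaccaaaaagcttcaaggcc
PKD2, chr4:88969721-88969801, plus strand: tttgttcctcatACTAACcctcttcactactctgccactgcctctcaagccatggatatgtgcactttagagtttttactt
SPTBN1, chr2:54889711-54889815, plus strand: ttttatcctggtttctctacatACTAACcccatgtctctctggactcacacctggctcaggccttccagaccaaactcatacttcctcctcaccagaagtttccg
PHF19, chr9:123622973-123623185, minus strand: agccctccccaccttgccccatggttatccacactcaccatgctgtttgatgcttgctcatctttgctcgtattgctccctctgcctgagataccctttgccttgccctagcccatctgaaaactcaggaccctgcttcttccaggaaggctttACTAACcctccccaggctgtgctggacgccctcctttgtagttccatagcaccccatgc
TLN1, chr9:35729861-35729980, minus strand: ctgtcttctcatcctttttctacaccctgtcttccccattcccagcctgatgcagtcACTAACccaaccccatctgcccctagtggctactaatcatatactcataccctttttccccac
Heights of these peaks ran from 219 in TLN1 to 559 in PTK2, against a median of 23 over the whole list, and 7 of the 8 lay nearer to the exon upstream of them. PTK2 encodes focal adhesion kinase, and its peak lay 4927 nt from the exon. SEPTIN11, a septin of the cytoskeleton, had the only peak of the 8 nearer to the downstream exon, with a height of 327 at 946 nt. The SF1 gene encodes the branch point binding protein itself, and its peak reached 249 at 870 nt. In PKD2, the gene of the cation channel polycystin-2, the height was 237 at 1739 nt. SPTBN1, a beta spectrin that links the membrane to actin, had a height of 230 at 318 nt. PHF19, a partner of Polycomb repressive complex 2, had 223 at 288 nt, and TLN1, the integrin-binding protein talin, had 219 at 2276 nt.

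A small group of mid-intron peaks carried ACTAAC many times. Most peaks with the motif had it once (938 peaks), 60 had it 2 times, and 13 peaks in 9 genes had 3 or more copies. The following are shown because they show how the copies are arranged, which differs from peak to peak.
COL13A1, chr10:71667385-71667598, plus strand: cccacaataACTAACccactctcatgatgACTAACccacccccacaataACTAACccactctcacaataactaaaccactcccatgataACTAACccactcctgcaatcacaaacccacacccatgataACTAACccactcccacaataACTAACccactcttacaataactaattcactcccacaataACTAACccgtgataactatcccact
LYRM4, chr6:5189596-5189719, minus strand: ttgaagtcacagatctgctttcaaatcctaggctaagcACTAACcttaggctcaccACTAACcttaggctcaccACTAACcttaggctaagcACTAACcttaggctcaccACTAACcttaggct
ATP11A, chr13:113499922-113500102, plus strand: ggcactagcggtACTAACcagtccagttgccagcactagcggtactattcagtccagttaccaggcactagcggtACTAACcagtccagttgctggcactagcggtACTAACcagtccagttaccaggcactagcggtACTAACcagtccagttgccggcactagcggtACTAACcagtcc
SLC7A11, chr4:139161820-139161916, minus strand: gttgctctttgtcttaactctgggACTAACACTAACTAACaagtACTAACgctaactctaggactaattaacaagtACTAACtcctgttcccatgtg
ARFGAP3, chr22:43195849-43195988, minus strand: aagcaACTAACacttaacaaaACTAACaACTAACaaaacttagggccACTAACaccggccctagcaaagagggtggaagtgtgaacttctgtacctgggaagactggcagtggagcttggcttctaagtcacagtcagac
GTF3C1, chr16:27535915-27535969, minus strand: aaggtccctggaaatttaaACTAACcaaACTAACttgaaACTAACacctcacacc
GK, chrX:30718238-30718314, plus strand: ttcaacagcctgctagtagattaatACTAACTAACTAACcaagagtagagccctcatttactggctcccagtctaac
COL13A1, a transmembrane collagen, held 7 copies in the peak shown and 3 in the next one, with heights of 27 and 18. The peaks with 5 copies were in LYRM4, which acts in iron-sulfur cluster assembly, with a height of 141, in ATP11A, a phospholipid flippase, with 57, and in SLC7A11, the cystine and glutamate exchanger, with 40. LYRM4 had a second peak with 4 copies and a height of 40, and ATP11A had 2 further peaks with 4 and 3 copies and heights of 112 and 100. ARFGAP3, a regulator of vesicle transport, held 4 copies in a peak of height 60. The peaks with 3 copies included GTF3C1, a subunit of the RNA polymerase III factor TFIIIC, with a height of 20, GK, glycerol kinase, with 23, MAPK8IP3, a scaffold of JNK signalling, with 59, and CDK5RAP2, a centrosomal protein, with 250. All but 2 of the 13 peaks reached the median height of the list, and their heights spanned 18 to 250. The letters repeat from unit to unit in COL13A1, LYRM4 and ATP11A, and how surely reads could be placed among the units was not tested.

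ACTAAC was present in 1011 of the 9916 mid-intron peaks, or 10.2% (9.62 to 10.8). Windows of the same length 500 nt away in the 3′ direction held it in 1.68% of cases (1.45 to 1.96). In 993 pairs only the peak had it and in 149 only the window (exact McNemar test, two-sided, p = 1.7e-153). Windows on the 5′ side held it in 1.54%, and the complement of the peak, read on the opposite strand, in 0.766%. ACTAAY, with Y for C or T, was found in 14.0% of peaks and 3.55% of windows. The bipartite form, ACTAAY with TAAY within 20 nt on either side, was found in 4.72% of peaks and 1.28% of windows. The short element TAAC alone was found in 26.6% of peaks and 18.5% of windows. All shares count a peak once however many copies it holds. Windows, here and below, were taken by distance alone, so some may lie in exons or on other peaks.

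**Figure D1:**
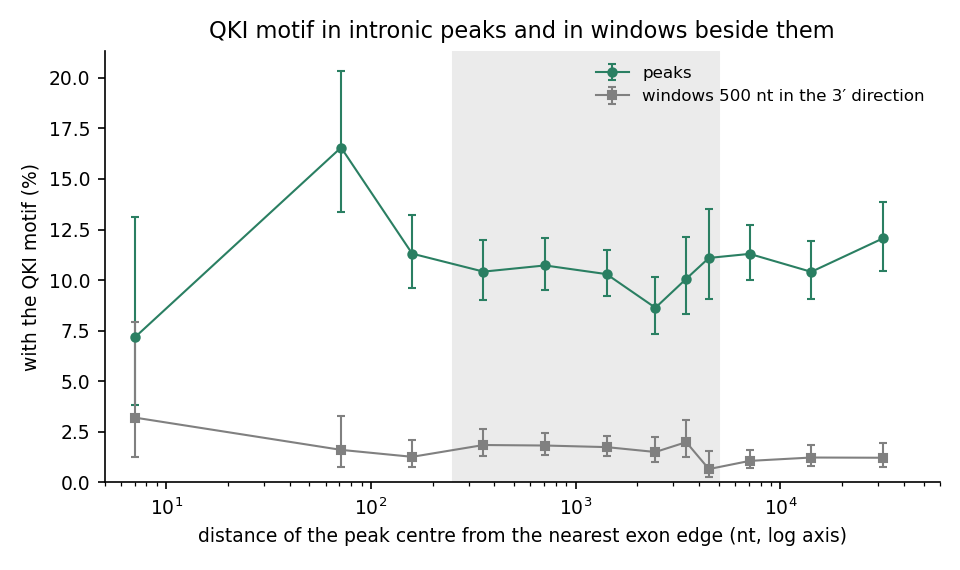
Share of intronic peaks with the QKI motif (circles) and of windows of the same length 500 nt in the 3′ direction (squares) against the distance of the peak centre from the nearest exon edge on a log axis; bars are 95% Wilson intervals and the shaded range is 251 to 5000 nt. Within the shaded range the peaks lie between 8.63% and 11.1% and the windows between 0.661% and 1.99%.

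The motif share changed little with distance inside the range. It was 10.4% (9.02 to 12.0) from 251 to 500 nt, 8.63% (7.33 to 10.1) from 2001 to 3000 nt and 11.1% (9.05 to 13.5) from 4001 to 5000 nt, and these intervals overlap. It was also much the same in peaks nearer to the upstream exon, 10.1% (9.31 to 10.9), and nearer to the downstream exon, 10.3% (9.45 to 11.3). Peaks within 250 nt of an exon held the motif in 12.3% of cases, against 10.2% in the mid-intron peaks. The odds ratio of the mid-intron peaks was 0.81 (95% interval 0.69 to 0.95, Fisher's exact test, two-sided, adjusted p = 0.017). Inside 250 nt the share did not rise steadily towards the exon. It was 11.3% (9.63 to 13.2) from 101 to 250 nt and 16.6% (13.4 to 20.3) from 51 to 100 nt. In the bin next to the exon, 1 to 50 nt, it was 7.20% (3.83 to 13.1). Peaks over 5000 nt out held the motif in 11.1% (odds ratio 0.91, 0.82 to 1.00, Fisher's exact test, adjusted p = 0.059). Both comparisons depended on their form. With 1 peak per intron the odds ratios were 0.93 and 0.95 (Fisher's exact test, adjusted p = 0.51 for both). With width, height and GC content in a logistic model they were 0.66 (0.56 to 0.78) and 0.77 (0.69 to 0.86).

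**Figure D2:**
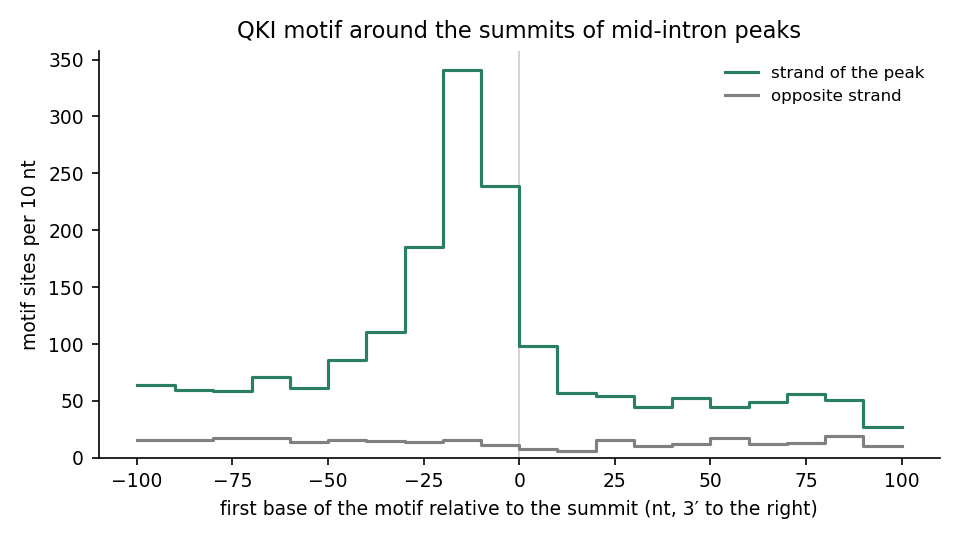
Number of QKI motif sites per 10 nt by the position of their first base relative to the summit of mid-intron peaks, on the strand of the peak (green) and on the opposite strand (grey). The peak strand rises to 341 sites in the 10 nt that start 20 nt before the summit, while the opposite strand stays between 6 and 19 sites.

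The motif lay close to the summit and slightly before it. Of 1812 sites within 100 nt of a summit on the peak's strand, 877 began within 25 nt of it, or 48.4% (46.1 to 50.7), where sites spread evenly would give 26.0%. Their median start was 14 nt before the summit. On the opposite strand 53 of 275 sites, or 19.3% (15.0 to 24.3), began within 25 nt. Sites that share a peak or a repeat are not independent, and these shares are given as a description.

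Mid-intron peaks with ACTAAC were taller than those without it. A height at or above the list median was reached by 686 of the 1011 peaks with the motif, 67.9%, and by 4604 of the 8905 peaks without it, 51.7% (odds ratio 1.97, 1.72 to 2.26, Fisher's exact test, two-sided, p = 5.5e-23). The share rose from 67.0% (63.9 to 69.9) with 1 copy to 79.5% (68.8 to 87.1) with 2 or more, where the median heights were 27 and 48. Peaks with more copies were also wider, with medians of 61 nt for none, 69.5 nt for 1 and 100 nt for 2 or more. With peak width in a logistic model the odds ratio was 1.57 (1.36 to 1.81).

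**Figure D3:**
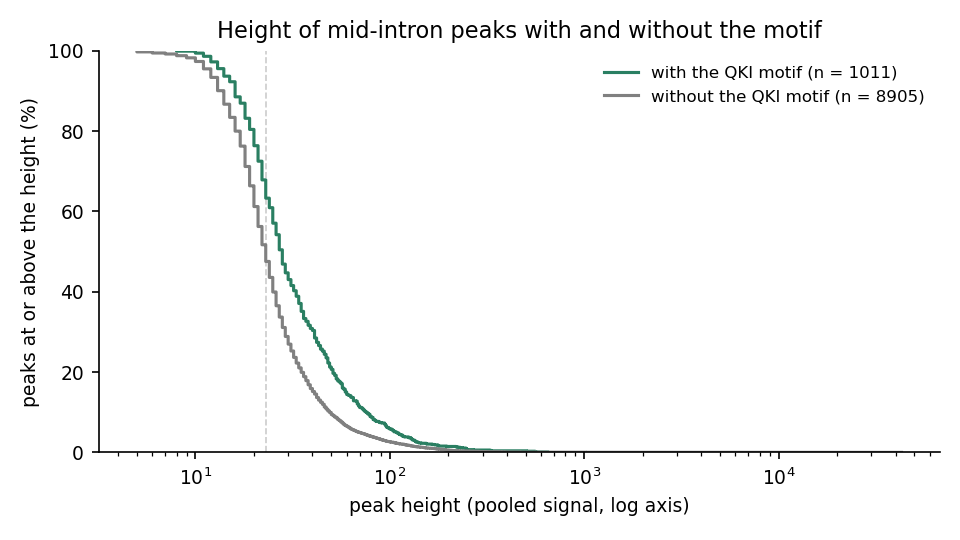
Share of mid-intron peaks at or above each height, on a log axis, for the 1011 peaks with the QKI motif (green) and the 8905 without it (grey); the dashed line is the list median of 23. The green curve lies above the grey one at the median, with 67.9% against 51.7% of peaks.

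Beyond the motif, mid-intron peaks held more G and C and less A and T than the windows beside them. The mean base content was 22.7% A, 24.5% C, 26.1% G and 26.7% T in peaks and 26.1% A, 21.5% C, 21.5% G and 30.9% T in the 3′ windows. Peaks without ACTAAC held 27.0% G, and peaks with it held 17.5%, below the windows. Of all possible hexamers, 964 were more frequent in peaks and 859 in windows (exact McNemar test, two-sided, Benjamini-Hochberg adjusted p under 0.05). The share of hexamers called higher in peaks was 23.5%. Among those present in at least 1% of peaks, the ratio of shares was highest for ACTAAC (6.05), CTAACC (4.23) and CTAACA (3.79), which overlap each other. Then came GGGGGG (3.15), GGAGGG (2.98) and AGGGGG (2.95). The 8905 peaks without ACTAAC had the same G-rich words at the head of their order, GGGGGG in 2.25% of peaks and 0.640% of windows and GGAGGG in 7.10% and 2.20%. All 64 hexamers made of A and T alone were more frequent in windows, for instance TATTAT, in 0.575% of peaks and 2.80% of windows. With 1 peak per gene the number of hexamers called in either direction was 965 in place of 1823.

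Peak density fell across the mid-intron range. In coding genes with at least 1 peak on their strand, the mid-intron class held 49.8 peaks per Mb of intron, against 56.7 within 250 nt of an exon (ratio 0.88, 0.84 to 0.93) and 26.7 over 5000 nt away (ratio 1.86, 1.81 to 1.93). Both intervals cover counting error only. From 251 to 500 nt the density was 64.7 peaks per Mb (61.6 to 67.9), from 1001 to 2000 nt it was 53.9 (51.9 to 56.0), and from 4001 to 5000 nt it was 35.4 (33.0 to 38.1). The comparison with the nearer class depended on what was counted. Peaks within 250 nt that reach an exon were outside it by rule, and without the peaks on any other annotated exon the ratio was 1.08 (1.02 to 1.15). That count left 1242 peaks in the nearer class and 8672 in the mid-intron class. The intron length stayed the same, with the sequence of those other exons still in it, so the ratio is not a density outside them. With the nearer class counted only over 100 nt from an exon, a choice made after the data were seen, the ratio was 0.74.

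**Figure D4:**
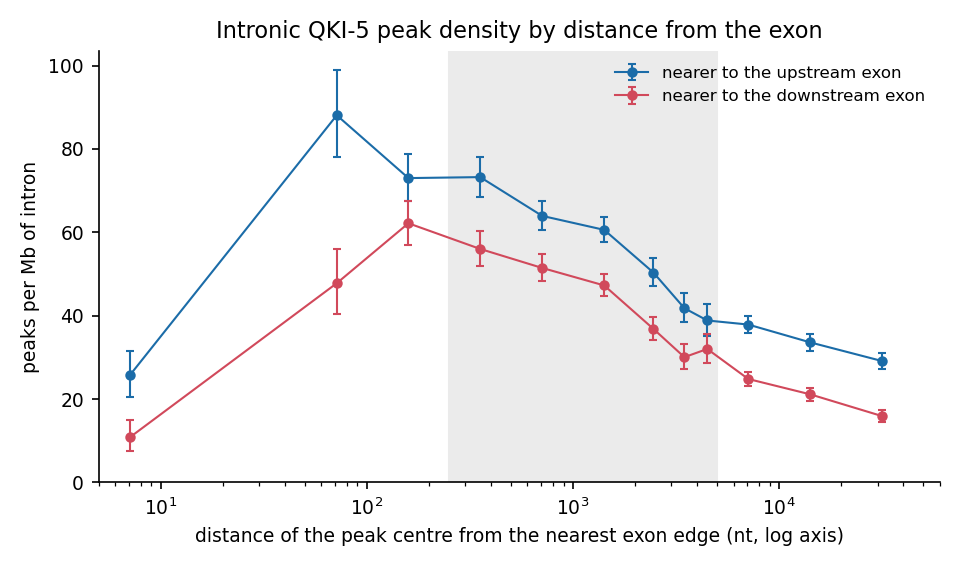
Intronic peaks per Mb of intron against the distance of the peak centre from the nearest exon edge on a log axis, for peaks nearer to the upstream exon (blue) and to the downstream exon (red); bars are exact 95% Poisson intervals and the shaded range is 251 to 5000 nt. In that range the upstream side falls from 73.2 to 38.9 and the downstream side from 56.0 to 32.0 peaks per Mb.

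More mid-intron peaks lay nearer to the upstream exon than to the downstream exon of their intron. The upstream exon was the nearer one for 5592 of 9912 peaks, 56.4% (55.4 to 57.4), where 50% of the positions are on that side (exact binomial test, two-sided, p = 2.0e-37), and 4 peaks lay in the middle. The share was 60.9% (59.2 to 62.5) in introns longer than 10000 nt. The same lean was present in each of the 6 distance bins of the range, from 73.2 against 56.0 peaks per Mb at 251 to 500 nt to 38.9 against 32.0 at 4001 to 5000 nt. Mid-intron peaks in introns that come first in a transcript were nearer to the upstream exon in 60.9% of cases (58.9 to 62.8), and those in other introns in 54.9% (53.8 to 56.1), a split made after the data were seen. Peaks within 250 nt of an exon leaned upstream too, in 68.0% (63.5 to 72.2) of cases in first introns and 54.5% (51.8 to 57.2) in others. Over 5000 nt out the same split went the other way, with 59.5% (57.7 to 61.2) and 62.3% (60.5 to 64.1). All peaks over 5000 nt out leaned further than the mid-intron peaks, with 60.8% (odds ratio 0.83, 0.78 to 0.89, Fisher's exact test, two-sided, p = 4.8e-08), also tested after the data were seen. With 1 peak per intron that difference had an odds ratio of 0.95 (Fisher's exact test, p = 0.33).

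The exons next to mid-intron peaks were more often annotated as skipped than other exons of the same genes. An internal exon counted as skipped when another basic coding transcript of its gene spans it with an intron. Of 2104 exons with a mid-intron peak nearest to their downstream edge, so lying upstream of the peak, 508 or 24.1% were skipped in the annotation, against 13.0% of 31902 other exons (odds ratio 2.14, 1.93 to 2.38, Fisher's exact test, two-sided, adjusted p = 1.4e-40). Of 1974 exons downstream of such a peak, 460 or 23.3% were skipped, against 12.8% of 32581 (odds ratio 2.07, 1.85 to 2.30, Fisher's exact test, adjusted p = 1.1e-34). The introns with peaks were longer, with medians of 5558.5 and 5728 nt against 2301 and 2484 nt. With intron length in a logistic model the odds ratios were 1.92 (1.73 to 2.14) and 1.97 (1.76 to 2.19). Another form kept at most 1 exon with a peak and 1 without per gene. The shares were then 23.7% against 18.8% upstream of the peak and 22.5% against 19.0% downstream. The odds ratios were 1.34 (1.15 to 1.56, Fisher's exact test, adjusted p = 0.00031) and 1.24 (1.06 to 1.44, adjusted p = 0.0076). In all these comparisons exons were pooled over genes and not paired within a gene. The annotation was not made from these cells, and inclusion of the exons in mesHMLE was not analysed here.

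Heights in the class were close to those of the peaks within 250 nt and above those of the peaks over 5000 nt out when all peaks were counted. The median was 23, with quartiles at 18 and 33. The list median was reached by 53.3% of mid-intron peaks and by 52.8% of the peaks within 250 nt (odds ratio 1.02, 0.92 to 1.13, Fisher's exact test, adjusted p = 0.70). Of the peaks over 5000 nt out, 49.7% reached it (odds ratio 1.16, 1.09 to 1.23, Fisher's exact test, two-sided, adjusted p = 1.7e-05). At the upper quartile of the list, a height of 33, the shares were 25.4% and 19.6% (odds ratio 1.39, 1.29 to 1.51, Fisher's exact test, adjusted p = 6.4e-17). The difference at the median did not hold with 1 peak per intron, where the odds ratio was 1.02 (Fisher's exact test, adjusted p = 0.67).

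Most introns with a mid-intron peak held 1, and some held many. At least 1 was present in 2870 of the 18084 coding genes whose introns could hold one, a share of 15.9%, and in 62.4% of the 4598 such genes with any peak on their strand. A mid-intron peak inside introns of more than 1 gene, as 314 were, was counted only for the gene with the shortest such intron. Of the 4475 introns that held one, 2812 held exactly 1, 445 held 5 or more, with 39.9% of the peaks, and the densest held 58. Peaks that shared an intron with another made up 71.6% of the class, and 33.9% had the centre of another within 100 nt. The 207 genes with 10 or more held 36.7% of the class. In introns with 5 or more peaks, ACTAAC was found in 6.90% of peaks (6.16 to 7.74), against 12.6% (11.4 to 13.9) of peaks alone in their intron and 12.2% (11.1 to 13.4) of those in introns with 2 to 4. The list median was reached by 57.6%, 54.2% and 47.3% of these peaks, so height did not follow the number of peaks in order. This split was made after the data were seen and is given as a description. Because neighbouring peaks share a transcript and its level, they are not replicates, and p-values over peaks are too small where introns are shared.

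**Figure D5:**
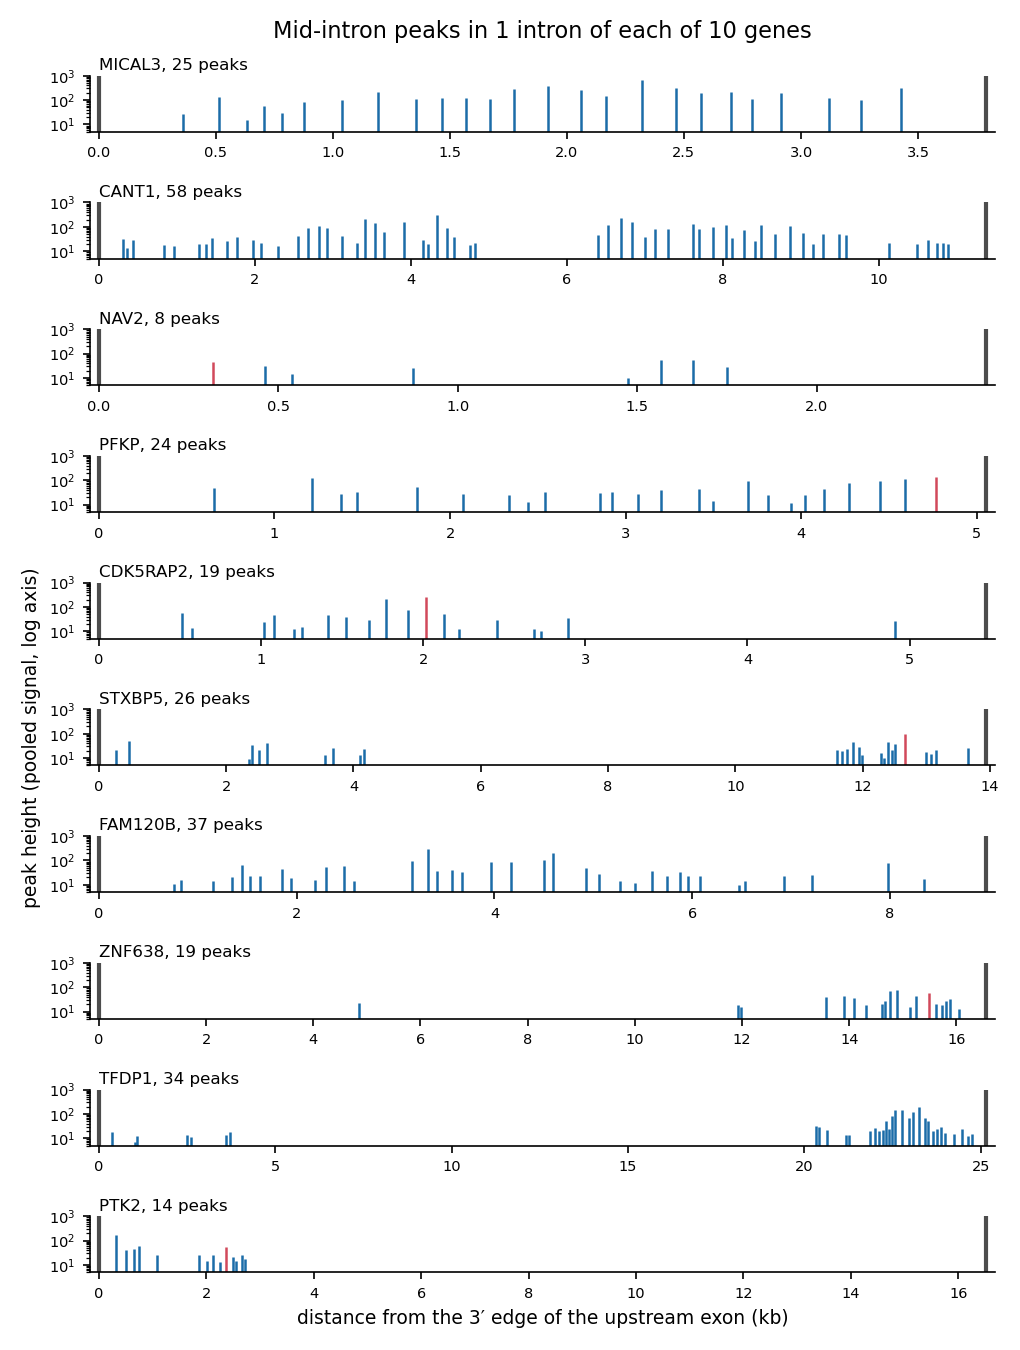
Mid-intron peaks in the intron with the most of them in each of 10 genes, drawn as lines at their distance in kb from the upstream exon, with height on a log axis; thick grey lines are the exon edges and red lines carry the QKI motif. Stretches more than 5000 nt from both exons are empty because peaks there belong to another class, and 58 peaks fill the CANT1 intron against 8 in that of NAV2.

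The 10 genes with the most mid-intron peaks held 484 of them, 4.88% of the class, and 19 of these, 3.93%, carried ACTAAC. In first place, MICAL3, an oxidoreductase that acts on actin, had 93 peaks in 12 introns, with heights from 12 to 693 and a median of 36, and ACTAAC was found in 3 of them. The gene CANT1, a calcium-activated nucleotidase of the secretory pathway, had 59, and 58 of these filled 1 intron of 11370 nt, chr17:76994376-77005745, of which peaks covered 6334 nt. None of the CANT1 peaks held the motif, and their median height was 40. NAV2, a cytoskeletal protein of the neuron navigator family, differed in that its 46 peaks were spread over 15 introns with at most 8 in 1. PFKP, the platelet form of the glycolytic enzyme phosphofructokinase, had 45 peaks in 3 introns with a median height of 28.

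CDK5RAP2 and STXBP5, a syntaxin-binding protein of vesicle fusion, had 42 each. In CDK5RAP2 38 lay nearer to the upstream exon and 4 to the downstream exon, whereas in STXBP5 the numbers were 20 and 22. FAM120B had 41, of which 37 were in 1 intron of 8970 nt, chr6:170704668-170713637. ZNF638, a zinc finger protein, had 40 in 8 introns. TFDP1, the partner through which E2F factors bind DNA, had 39, with 34 in 1 intron and 27 nearer to the downstream exon. PTK2 had 37, of which 32 lay nearer to the upstream exon and 5 to the downstream exon. The direction of the lean thus varied from gene to gene, with MICAL3, at 41 upstream and 52 downstream, and NAV2, at 13 and 33, on the other side.

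The tallest MICAL3 peak is shown because it holds no ACTAAC at all but 22 copies of its last letters, TAAC, given in capitals.
MICAL3, chr22:18359682-18359898, minus strand: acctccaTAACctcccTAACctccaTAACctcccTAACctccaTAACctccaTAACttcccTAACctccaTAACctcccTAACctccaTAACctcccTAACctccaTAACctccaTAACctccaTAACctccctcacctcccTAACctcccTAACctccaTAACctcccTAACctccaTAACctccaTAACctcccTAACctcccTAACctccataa
It had a height of 693 and lay 1470 nt from the downstream exon, in an intron of 3791 nt with 25 peaks and a median height of 120. Peaks covered 3015 nt of that intron. Similar units repeat through the whole peak, and how surely reads could be placed among them was not tested.

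Of the 10 tallest mid-intron peaks, 7 overlapped an exon of another annotated transcript and 3 held ACTAAC. Which of the overlapping RNAs gave the reads was not tested. The highest, 42903, was in an intron of TMEM222 on RNU6-48P, a copy of the U6 spliceosomal RNA gene, and a peak of 1022 in KIF1B lay on another copy, RNU6-37P. U6 RNA has many copies in the genome. The authors dropped reads that mapped with low quality, and how surely the remaining reads were placed on these 2 copies was not tested. ARGLU1, a splicing regulator, had peaks of 1136 and 1093 on an annotated transcript that retains its intron. A peak of 648 in a gene without a symbol (ENSG00000256500) lay on a transcript of KLC1, a kinesin light chain, and one of 565 in PCBP2, a poly(C)-binding protein, lay on an exon of another PCBP2 transcript. A peak of 560 in ENSG00000285920 lay on OIP5-AS1, a long noncoding RNA whose exons held 24 of that gene's 31 mid-intron peaks. The other members of the 10 were in MICAL3, PTK2 and KIF2A, a microtubule-depolymerising kinesin, where a peak of 595 held no motif and touched no annotated exon.

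Over the whole class, 1244 peaks, or 12.5% (11.9 to 13.2), overlapped an exon of a transcript that the rule does not use. The largest group was 786 peaks on retained-intron transcripts, with a median height of 24.5 and ACTAAC in 10.6% (8.60 to 12.9). The 84 peaks on lncRNA exons had a median height of 32 and ACTAAC in 7.14% (3.31 to 14.7). Of these 84, 24 lay on OIP5-AS1, in an intron whose 24 mid-intron peaks had a median height of 133.5. Only 14 lay on small noncoding RNA genes or copies, 5 of them RNU6 copies, and none of the 14 held ACTAAC. MicroRNA genes accounted for 4 peaks. Of these, 2 were on MIR7-1, in an intron of HNRNPK, with heights of 76 and 49, 1 was on MIR4440 in HDAC4 with 231, and 1 on MIR641 in AKT2 with 18. The peaks on no other exon, 8672 in number, had a median height of 23 and ACTAAC in 10.2% (9.62 to 10.9).

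The gene lists below were drawn up with earlier results of these data known, and their counts are a description beside the 15.9% of all coding genes. That background includes genes with no peak of any kind. Intron length and transcript level differ between genes, and their part in the counts was not tested. Of the 33 genes for actin filaments and myosins, 28 had a mid-intron peak, with a median of 3 and 315 peaks in all. After MICAL3, the genes with most were MPRIP, which ties myosin phosphatase to actin, with 36, TPM1, a tropomyosin, with 26, MYO18A, an unconventional myosin, with 22, VCL, vinculin, with 20, and ACTN4, an alpha-actinin, with 19. TPM1 packed its peaks most densely of these 5, at 1.96 per kb of mid-intron sequence against 0.369 for VCL.

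Of the 11 genes whose splicing events the study assayed by RT–PCR, 10 had a mid-intron peak, and these genes were chosen by the study for splicing changes with QKI, so their count is not independent evidence. MARK3, a polarity kinase, and MPRIP had 36 each, MYO18A 22, CD47, an integrin-associated surface protein, 14, NUMB, an endocytic adaptor and Notch inhibitor, 12, and CLSTN1, a calsyntenin, 6. The NUMB peaks had a median height of 47.5 and reached 288, and 11 of the 12 lay in the same intron. Of the 23 cell junction and polarity genes that could be counted, 14 had one. DST, the cytolinker dystonin, had 33, DLG1, a scaffold of the cell cortex, 27, PKP4, a plakophilin, 18, CTNNA1, alpha-catenin, 16, LMO7, a junction protein, 15, and NUMB 12. PKP4 had 16 of its 18 nearer to the downstream exon.

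Splicing factor genes held mid-intron peaks in 21 of 33 cases. SF1 had 19, at 3.24 per kb and with a tallest peak of 310, ARGLU1 15, of which 14 were on other annotated exons, MBNL1 13, and TIA1 12, and the next were HNRNPC with 6 and PTBP1, CELF1, TRA2B, RBM39 and U2AF1 with 5 each. Genes of integrins, matrix and focal adhesion had them in 17 of 30 cases, led by PTK2 with 37, TLN1 with 32 in a single intron, VCL with 20, FN1 and TNS3 with 15 each and CD47 with 14. Glycolysis genes had them in 4 of 16 cases, with PFKP at 45 and PKM, a pyruvate kinase whose splicing is well studied, at 16, of which 10 lay on other annotated exons. ENO1, enolase, had 4 and PGK1, phosphoglycerate kinase, 2. TGF-beta signalling and EMT transcription factor genes had them in 8 of 23 cases and 18 peaks in all. TGFBR2, a TGF-beta receptor, and SMAD2, a signal transducer, had 5 each, ACVR1 and ZEB2 2 each, and the tallest in any of these genes was 32, in SMAD2.

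At the lower limit of the class, 8 peaks had their centre at 251 nt, with heights from 22 to 108, and 6 peaks just outside had it at 250 nt, with heights from 17 to 138. They included LMO7 and DOCK6 on the inside and MAP4 and JPH2 on the outside. At the upper limit, 1 peak in FOXK2 at 5000 nt had a height of 13, and 1 in CABIN1 at 5001 nt had a height of 11. When the summit was used in place of the centre the class held 9944 peaks, and with the exons of all transcripts in place of the basic coding ones it held 9288.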

How the data were processed

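Per the labels and the methods of the study, the authors trimmed reads with cutadapt 1.3, mapped them to hg19 with TopHat2 2.0.10, collapsed duplicates by position and molecular barcode, and dropped reads that mapped with low quality. Libraries were then pooled, and peaks were called strand by strand with MACS2 2.1.1.20160309 against the size-matched input. The deposited list gives positions, a summit and a height, a pooled signal that the authors wrote as a whole number per peak. It was used only within the list.

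Peaks were placed on GRCh37 (the hg19 sequence) and GENCODE release 44 lifted to it. Introns were the exon-free gaps between exons of basic coding transcripts. The genes named were the 10 with the most peaks, those of the 10 tallest peaks, of the 8 tallest with ACTAAC on no other exon and of peaks with 3 or more ACTAAC, up to 6 per gene list with ties, and those at the limits. The hosts of microRNAs and the genes with tandem repeats were named after their values were seen. Some items that this rule names are not reported here. The members, lists and tests were chosen with earlier results of these data known. Tests were exact and two-sided, with Benjamini-Hochberg adjustment over both comparison classes, both exon sides or all hexamers. Odds ratios have 95% intervals, and counting error is the only error they cover. Odds ratios under a model come from logistic regression. Alternatives changed the annotation, position, windows, motif, height limit and the peaks used. Of 500 peaks drawn from the list, 0 were placed in another class than by direct search. Of 200 simulated comparisons without a difference, 10 had p under 0.05. The simulated counts were independent, so this checks the code and says nothing of p-values over peaks that share an intron. Python 3.11.15, numpy 2.4.6, scipy 1.17.1, pandas 2.3.3, statsmodels 0.14.6, pysam 0.24.0 and matplotlib 3.10.9 were used. The 18 mitochondrial peaks have no introns and entered no class.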

Additional observations from a re-analysis of the deposited data

How the results depend on the processing

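No paired analysis was possible because the libraries were pooled before peaks were called, so no value belongs to a numbered replicate and none could be left out. Of 89 alternative values, 70 kept their direction and side of the threshold or their size. Both counts include the values with merged peaks, which could not differ from the main ones and test nothing. The motif against its windows (ratio of discordant pairs 3.77 to 11.6), the motif and height, the lean to the upstream exon (54.9% to 60.9%) and the skipped exons (odds ratios 1.24 to 2.28) did so in all alternatives run. With the lower peaks left out, 5290 peaks were counted and the density ratio to the class over 5000 nt out was 2.00. With 1 peak per intron, the odds ratio for the motif against the class within 250 nt was 0.93, and those for height were 0.94 against that class and 1.02 against the farther one. With 1 peak per gene the same 3 were 0.89, 0.94 and 0.99, the motif against the farther class 1.09, and 965 hexamers were called. Without peaks on other annotated exons, the motif against the nearer class was at 0.81 (Fisher's exact test, adjusted p = 0.059) and the density ratios were 1.08 and 1.66. In these density ratios the intron length was not reduced for those exons. The logistic model gave 0.77 for the motif against the farther class. At the upper quartile of height the odds ratio was 1.00 (0.998) to the nearer class and 1.39 to the farther one. With introns of all coding genes the density ratio to the nearer class was 0.97, and with that class counted over 100 nt from an exon, added after the data were seen, it was 0.74. The upstream lean against the farther class, also added, had an odds ratio of 0.95 with 1 peak per intron and 0.90 with 1 per gene. Fewer peaks were tested with 1 per intron or gene, and the cause was not tested further. No 2 peaks on a strand overlapped or touched, so merging changed nothing. Pooling, the unknown depth and the missing transcript levels limit every value.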

Other observations

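The MICAL3 peak led to a look at tandem repeats, chosen after the data were seen. A sequence counted as one when it matched itself at 80% or more of its positions after a shift of 5 to 60 nt. This held for 53 mid-intron peaks, or 0.534% (0.409 to 0.698), and for 53 of the 3′ windows and 48 of the 5′ windows, so the counts beside the peaks were close to those in them. Of the 53 peaks, 37 or 69.8% (56.5 to 80.5) reached the median height of the list, against 53.3% of the whole class. TAAC was held by 24, or 45.3% (32.7 to 58.5) against 26.6%. ACTAAC was held by 5, or 9.43% (4.10 to 20.3) against 10.2%. MICAL3 had 6 with heights of 150 to 693, FAM120B 5 with 35 to 206, RPTOR, the scaffold of mTORC1, 5 with 46 to 98, and PLEKHG4B 5 with 17 to 43. The tallest outside MICAL3 was a single peak of 391 in DIP2C.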
